A study of Homo sapiens with 6 samples.

Results

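The genes described here encode the constitutive proteasome, together with the helpers that build its regulatory particle. They were taken as every gene with a probe set of its own whose platform symbol is PSMA, PSMC or PSMD with a number, or PSMB1 to PSMB7. This gave 30 of the 11963 genes that the arrays measured with a probe set naming 1 gene, and each gene was represented by its probe set with the highest mean over all 6 arrays. The same letters also match PSMC3IP, a cofactor of meiotic recombination that is no part of the proteasome, and it was left out; its signal was 523 ± 15.7 under the label MALT1 and 479 ± 2.20 under the label mock (SD, n = 3 each; adjusted p = 0.276, limma). PSMA8, PSMD7 and PSMD13 were not analysed here. PSMA6 had no probe set of its own and is not among the 30.

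The proteasome is the protease that destroys proteins tagged with ubiquitin. Its barrel, the 20S core, has outer rings of alpha subunits that gate the entrance and inner rings of beta subunits, of which PSMB6, PSMB7 and PSMB5 carry the cutting sites (beta1, beta2 and beta5). The 19S particle caps the barrel, with a base whose ATPases unfold the substrate and a lid that removes the ubiquitin. Under interferon, cells can replace the cutting subunits by PSMB9, PSMB10 and PSMB8, which gives the immunoproteasome. Squamous carcinoma cells, like other dividing cells, depend on the constitutive form.

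The series holds 6 arrays. All cells were labelled HSC2, an established human oral squamous carcinoma line, grown in DMEM with serum and antibiotics. On 3 arrays the cells had been stably transfected with full-length wild-type MALT1 cDNA, and on the other 3 with the vector alone, called mock. MALT1 is a paracaspase of NF-kappaB signalling, and the study asked which genes change when it is expressed. The labels name no promoter, do not say whether the transfected cells are a clone or a pool, and do not say that the samples of a group are separate cultures, so the p-values cover only the variation among these arrays, part or all of which may be technical. The number of arrays limits the precision.

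The groups differed in much more than the proteasome. The 3 probe sets for MALT1 read lower on the arrays labelled MALT1, with log2 differences of -1.08, -0.47 and -0.28 (adjusted p = 0.0022, 0.0104 and 0.0969 in the limma fit), which goes against the labels, so groups are named by label only. Of 10 measured squamous keratinocyte markers all 10 were lower there, and their summed signal was 7357 to 7520 against 35943 to 37764 on the arrays labelled mock. Of 12 luminal breast markers 11 were higher, with a summed signal of 78240 to 87040 against 8972 to 9734, and PGR was dim on every array. The 8 fibroblast markers summed to 142 to 271 against 156 to 209. The arrays' median signal was 69.3, 70.6 and 79.0 under the label MALT1, in replicate order, against 64.1 to 68.2. The median log2 difference of all genes was 0.08, and 0.006 without MALT1 replicate 3. The part of these differences in the proteasome results was not tested. In whole-culture RNA, fewer cells that express a gene and less of its RNA per cell cannot be told apart.

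Of the 30 proteasome genes, 19 were higher on the arrays labelled MALT1, 2 were lower and 9 did not pass an adjusted p under 0.05 (limma, Benjamini-Hochberg over all 22215 probe sets tested). Over all 11963 genes the shares were 21.1% higher and 19.2% lower, 40.4% in either direction. Proteasome genes are bright, and brighter genes pass more often. Among the 3059 genes at least as bright as the dimmest proteasome gene, 29.1% were higher and 30.1% lower. The median log2 difference, in log2(signal + 1) with the arrays labelled mock subtracted, was 0.42 over the 30 genes, with quartiles of 0.13 and 0.81. Over all genes the median was 0.08, with quartiles of -0.46 and 0.62. Over the 3059 genes above it was 0.01, a set with a lower limit on brightness but not matched in brightness. The range between quartiles was 0.67 for the proteasome genes and 1.08 for all genes. In 28 of the 30 genes the groups did not overlap, with 23 higher and 5 lower. Of all genes 54.6% showed no overlap, and of the 3059 at least as bright as the dimmest proteasome gene 2419 did not. PSMD6, PSMD4, PSMD3, PSMA5 and PSMB4 passed with at least a 2-fold rise, against 10.8% of all genes, and none with a 2-fold fall.

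Among the 30 genes the rise touched each part of the complex, and the 2 that fell are both helpers of assembly and not subunits. In the alpha rings 3 of 6 measured genes were higher, in the beta rings 6 of 7, among the ATPases of the base 3 of 5, among the other base subunits 2 of 3 and in the lid 5 of 6. None of these 27 subunit genes passed as lower. The symbol rule leaves out the 19S genes ADRM1 (Rpn13) and SEM1. ADRM1 passed as lower and SEM1 as higher (log2 differences -0.36 and 0.52, adjusted p = 0.0225 and 0.0176, limma). In 3 of the 27, PSMA2, PSMD2 and PSMD8, every array labelled MALT1 read below every array labelled mock. These 3 passed as lower in some of the alternative settings given at the end. Of the 3 chaperones of base assembly 0 were higher and 2 lower. The median log2 differences were 0.23, 0.69, 0.51, 0.42 and 0.75 for the 5 kinds of subunit in that order, and -0.38 for the chaperones. Differences between these groups of genes were not tested. Centring each array on its median lowered every difference by 0.13. The median of all genes moved from 0.08 to -0.05 and that of the proteasome genes to 0.30. After this centring, 14 of the 19 higher genes and both lower genes still passed, beside 16.3% higher and 21.0% lower of all genes.

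**Figure D1:**
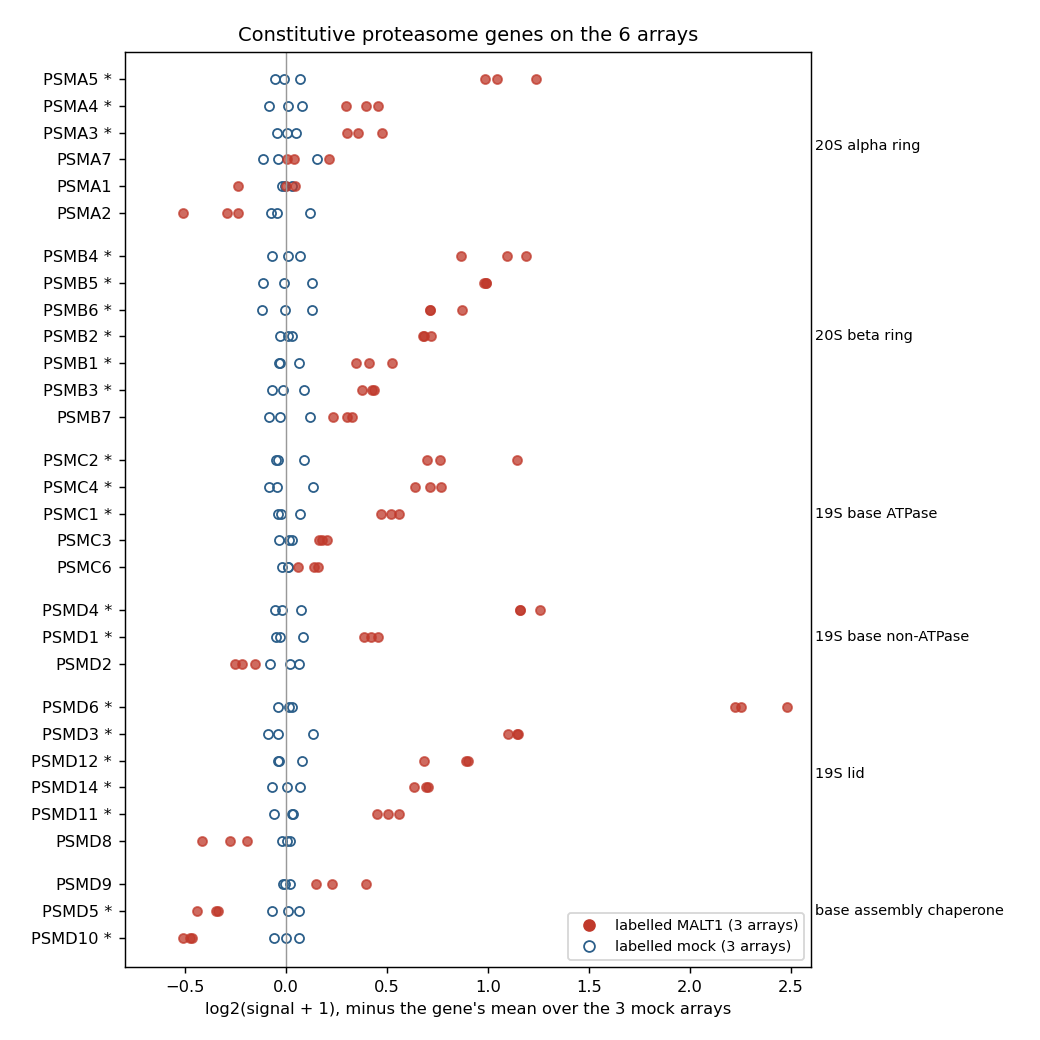
Signal of each of the 30 proteasome genes on the 6 arrays, as log2(signal + 1) minus the gene's mean over the 3 arrays labelled mock, grouped by place in the complex; filled points are arrays labelled MALT1, open points arrays labelled mock, and a star marks an adjusted p under 0.05. In 28 genes the filled and open points do not overlap, and PSMD6 stands farthest to the right at 2.32.

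The 250 bases upstream of the outermost RefSeq start (GRCh38.p14) are printed to show the DNA in front of genes that moved. The genes are 1 each of the alpha ring, the beta ring and the lid that rose about 2-fold, and the 2 chaperone genes that fell. They are PSMA5 at chr1:109426449-109426698 (minus strand), PSMB5 at chr14:23035221-23035470 (minus strand), PSMD3 at chr17:39980557-39980806 (plus strand), PSMD5 at chr9:120842923-120843172 (minus strand) and PSMD10 at chrX:108091543-108091792 (minus strand). Each reads 5′ to 3′ along the gene and ends at the base before the start. Capitals mark matches on either strand to CCAAT, the NF-Y box, or to TGACNNNGC, the core of the antioxidant response element that NFE2L1, the activator of proteasome genes, can bind.
PSMA5: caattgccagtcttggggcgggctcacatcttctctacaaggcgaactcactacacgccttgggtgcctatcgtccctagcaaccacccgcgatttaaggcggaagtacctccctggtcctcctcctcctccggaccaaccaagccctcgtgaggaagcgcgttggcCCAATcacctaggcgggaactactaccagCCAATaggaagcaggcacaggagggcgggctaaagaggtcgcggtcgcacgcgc
PSMB5: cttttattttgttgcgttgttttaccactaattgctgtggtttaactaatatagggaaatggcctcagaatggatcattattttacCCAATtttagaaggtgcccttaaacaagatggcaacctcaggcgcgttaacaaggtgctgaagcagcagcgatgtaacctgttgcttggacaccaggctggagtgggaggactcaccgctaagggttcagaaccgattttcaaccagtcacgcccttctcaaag
PSMD3: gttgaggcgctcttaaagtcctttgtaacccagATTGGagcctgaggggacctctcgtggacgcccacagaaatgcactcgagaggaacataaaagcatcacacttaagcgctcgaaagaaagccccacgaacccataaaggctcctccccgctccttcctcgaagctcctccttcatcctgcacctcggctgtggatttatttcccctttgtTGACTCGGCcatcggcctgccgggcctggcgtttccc
PSMD5: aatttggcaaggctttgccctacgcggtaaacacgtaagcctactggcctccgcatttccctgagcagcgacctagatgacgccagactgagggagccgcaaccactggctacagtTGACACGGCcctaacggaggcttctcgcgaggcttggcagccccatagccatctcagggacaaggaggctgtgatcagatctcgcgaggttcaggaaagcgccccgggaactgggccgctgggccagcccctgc
PSMD10: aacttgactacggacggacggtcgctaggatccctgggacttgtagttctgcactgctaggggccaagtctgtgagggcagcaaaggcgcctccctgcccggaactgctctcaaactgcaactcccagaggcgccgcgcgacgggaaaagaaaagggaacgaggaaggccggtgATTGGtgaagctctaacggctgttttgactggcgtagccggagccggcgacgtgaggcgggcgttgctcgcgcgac
CCAAT matches began at -83 and -54 in PSMA5, -164 in PSMB5, -217 in PSMD3 and -76 in PSMD10, counted from the start. TGACNNNGC matches began at -37 in PSMD3 and -134 in PSMD5. A second RefSeq start of PSMB5, with upstream bases at chr14:23034901-23035150 that are not printed, had no match to either motif there. The motifs are therefore present in front of genes of both directions. Every printed stretch held a match, but not every gene that rose did. The 250 bases upstream of PSMB4, which rose 2.07-fold, held no match to either motif. The same was true of PSMB2, PSMC1, PSMC4 and PSMD11.

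Both motifs were searched in the whole RefSeq promoter windows, 250 bases before to 50 after each start, on both strands. A gene with several starts was counted as holding a motif if any of its windows did. A window was held for 25 of the 30 genes; PSMA7, PSMB1, PSMB6, PSMB7 and PSMD4 had none. TGACNNNGC was found in 8 of the 25 (32.0%), namely PSMA4, PSMB3, PSMC4, PSMD1, PSMD3, PSMD5, PSMD9 and PSMD12, and in 19.4% of the 9563 measured genes with a window. It was in 6 of 16 higher genes, 1 of 2 lower genes and 1 of 7 that did not pass. CCAAT was found in 14 of the 25 (56.0%), against 44.2% of measured genes, in 10 of the 16 higher, 1 of the 2 lower and 3 of the 7 others. The cyclic AMP response element TGACGTCA was in 0 of 25 and in 3.59% of measured genes. These 3 motifs can share only their end bases, and a match is a description of the letters, not a binding site.

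Of the 3 cutting subunits, PSMB5 and PSMB6 rose and PSMB7 did not pass. PSMB5 (beta5, the chymotrypsin-like site and the main target of bortezomib) read 5579, 5610 and 5610 on the 3 arrays labelled MALT1, in the order of their replicate numbers, and 2609, 3096 and 2807 on the 3 labelled mock. The groups were far apart, with a 1.98-fold rise (log2 difference 0.98 ± 0.10 SE, adjusted p = 0.0013, limma). PSMB6 (beta1, the caspase-like site) read 7159, 7176 and 7985 against 4022, 4354 and 4780, a log2 difference of 0.76 ± 0.11 SE (adjusted p = 0.0043, limma). PSMB7 (beta2, the trypsin-like site) read 6841, 6518 and 6969 against 5238, 5426 and 6027. Every value of PSMB7 was higher on the arrays labelled MALT1, but the gap of 0.29 ± 0.09 SE missed the threshold (adjusted p = 0.0711, limma) and shrank to 0.16 with each array centred on its median. It passed in 3 other settings of the test, with adjusted p of 0.006 to 0.0458.

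Of the immunoproteasome counterparts, PSMB8 and PSMB9 fell and PSMB10 rose. PSMB8, which takes the place of PSMB5, read 3.84, 6.23 and 5.01 against 425, 322 and 346. On the arrays labelled MALT1 it lay below a dim level of 17.6, set by the brightest reading of control probes for a bacterial trp gene, so its fall is given as at least 20.5-fold (adjusted p = 6.9e-05, limma). PSMB9, the counterpart of PSMB6, read 42.3, 26.0 and 28.5 against 287, 270 and 302 (log2 difference -3.14 ± 0.20 SE). PSMB10, the counterpart of PSMB7, instead read 581, 533 and 512 against 273, 274 and 320 and rose (log2 difference 0.91 ± 0.11 SE, adjusted p = 0.0026, limma). So at the beta5 and beta1 sites the constitutive gene was higher and the inducible one lower, and at beta2 both readings were higher, with only PSMB10 past the threshold.

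**Figure D2:**
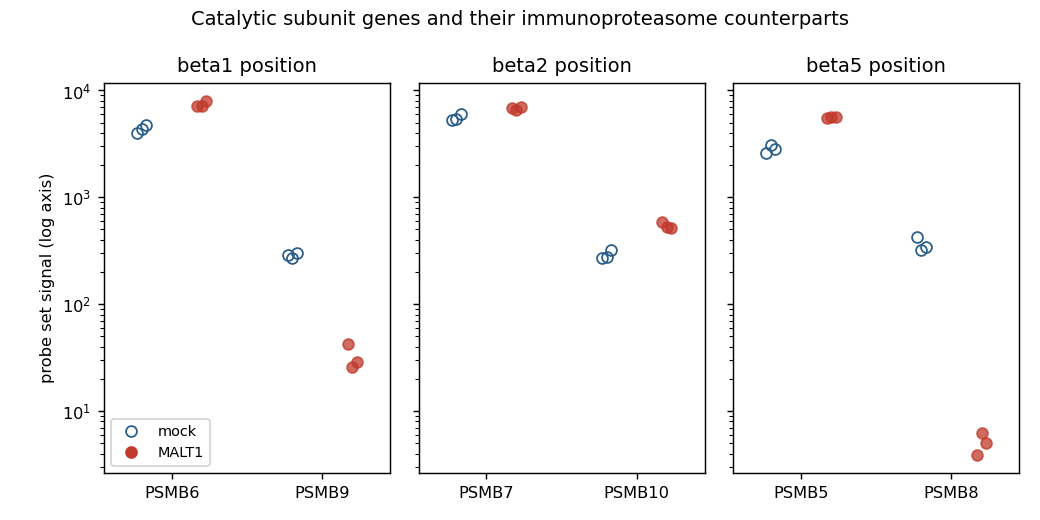
Probe set signal (log axis) of the 3 cutting subunit genes and their immunoproteasome counterparts on each array; open points are arrays labelled mock, filled points arrays labelled MALT1. Signals of different probe sets cannot be compared as levels; within each gene, PSMB8 and PSMB9 lie lower and PSMB5, PSMB6 and PSMB10 higher on the arrays labelled MALT1.

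The other beta subunits, which build the inner rings without cutting, also rose. PSMB4 (beta7) read 10098, 10788 and 8620 against 4501, 4751 and 4952, a log2 difference of 1.05 ± 0.12 SE (adjusted p = 0.002, limma), and its other probe set gave 1.44. PSMB2 (beta4) read 5037, 4899 and 4906 against 3074, 2990 and 3115. All its arrays labelled MALT1 were higher (0.69 ± 0.08 SE, adjusted p = 0.0019, limma), yet a dimmer probe set for PSMB2 fell by 0.64 on the log2 scale (adjusted p = 0.0048), and the mean of both was 0.03 and did not pass. PSMB1 (beta6) read 12014, 11101 and 10606 against 8151, 8172 and 8725 (0.43 ± 0.09 SE, adjusted p = 0.0183, limma). A second probe set for PSMB1 rose by 0.56 (adjusted p = 0.0061) and the third did not pass. PSMB3 (beta3) rose from 4526 ± 255 to 6013 ± 135 (mean ± SD, n = 3 each; log2 difference 0.41, adjusted p = 0.017, limma).

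The alpha rings, which hold the gate of the barrel, were mixed. PSMA5 (alpha5) read 5919, 5690 and 6777 against 2761, 2847 and 3014. Its 2.13-fold rise (log2 difference 1.09 ± 0.10 SE, adjusted p = 0.0012, limma) was the largest of the 6 alpha genes measured. PSMA3 (alpha7) and PSMA4 (alpha3) rose by less, 0.38 each (adjusted p = 0.0263 and 0.0293, limma), and in both the groups stood apart. PSMA7 (alpha4) read 9563, 9341 and 10771 against 8593, 9065 and 10364, a difference of 0.08 that was -0.04 after median centring, and PSMA1 (alpha6) 7013, 5955 and 7249 against 6921, 7151 and 7001. These are the 2 proteasome genes whose groups overlapped. PSMA2 (alpha2) read 4826, 5001 and 4144 against 6412, 5731 and 5616, lower on every array labelled MALT1, and missed the threshold (log2 difference -0.35 ± 0.12 SE, adjusted p = 0.0733, limma). A second PSMA2 probe set gave -0.30 (adjusted p = 0.0582). Dimmer probe sets that name both C7orf25 and PSMA2 were not counted. They gave -0.87 and -1.30 (adjusted p = 0.0076 and 0.0093, limma). Probe sets that name both PRORP and PSMA6 were not counted either. Those gave 0.39 and 0.27 (adjusted p = 0.0215 and 0.0785, limma).

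Of the ATPases that unfold substrates, PSMC2, PSMC4 and PSMC1 rose. PSMC2 (Rpt1) read 6596, 6909 and 9014 against 3937, 4335 and 3965 (0.87 ± 0.15 SE, adjusted p = 0.0087, limma). Its highest value was on MALT1 replicate 3, and without that array the difference was 0.73. PSMC4 (Rpt3) read 1343, 1394 and 1275 against 896, 793 and 772, a 1.63-fold rise (adjusted p = 0.0044, limma). PSMC1 (Rpt2) read 5483, 5657 and 5817 against 4143, 3842 and 3886, a 1.43-fold rise (adjusted p = 0.0068, limma). PSMC3 (Rpt5) and PSMC6 (Rpt4) did not pass, with log2 differences of 0.18 ± 0.08 SE and 0.12 ± 0.08 SE (adjusted p = 0.136 and 0.325, limma), although neither had overlapping groups.

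Among the other base subunits PSMD4 rose most. PSMD4 (Rpn10), a receptor for ubiquitin chains, read 4885, 4884 and 5231 against 2159, 2107 and 2301. The 2.28-fold rise (1.19 ± 0.09 SE, adjusted p = 0.00048, limma) was met in 2 further probe sets at 1.22 and 1.19; the fourth was dim on all arrays. The scaffold PSMD1 (Rpn2) rose from 1870 ± 92.6 to 2501 ± 62.7 (mean ± SD, n = 3 each; 0.42, adjusted p = 0.0145, limma). Its partner PSMD2 (Rpn1) read 5333, 4986 and 5103 against 5616, 6202 and 6009, the other way, without passing (-0.21 ± 0.09 SE, adjusted p = 0.129, limma).

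The lid held the largest change of all 30 genes. PSMD6 (Rpn7) read 15572, 15898 and 18604 on the arrays labelled MALT1 against 3242, 3395 and 3357. This is a 4.99-fold rise (log2 difference 2.32 ± 0.10 SE, adjusted p = 0.00012, limma), higher than 95.5% of all genes, and the gene has 1 probe set. PSMD3 (Rpn3), whose upstream letters are printed above, read 965, 934 and 964 against 408, 478 and 424, a 2.19-fold rise (adjusted p = 0.0008, limma). PSMD12 (Rpn5) read 6927, 6880 and 5957 against 3922, 3623 and 3614 (0.82 ± 0.10 SE), and its second probe set rose by 0.42 (adjusted p = 0.0299, limma). PSMD14 (Rpn11), the metalloprotease that cuts ubiquitin off the substrate, read 6096, 6058 and 5816 against 3570, 3763 and 3934, a 1.60-fold rise (adjusted p = 0.0029, limma). PSMD11 (Rpn6) read 4089, 3937 and 4243 against 2940, 2759 and 2953, a 1.42-fold rise on its brighter probe set (adjusted p = 0.0077, limma). The dimmer PSMD11 probe set gave -0.05 and did not pass, nor did the mean of both. PSMD8 (Rpn12) read 1600, 1512 and 1373 against 1805, 1834 and 1858, lower on every array, and missed the threshold (-0.30 ± 0.09 SE, adjusted p = 0.0630, limma).

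Among the 30 genes are 3 chaperones that assemble the ATPase ring and leave before the proteasome is complete. Of these, 2 fell and 1 did not pass. PSMD10 (gankyrin, also known as a liver oncogene) read 3837, 3872 and 3748 against 5126, 5333 and 5581. It was lower on each array labelled MALT1 (-0.48 ± 0.08 SE, adjusted p = 0.0079, limma), and its median-centred difference was -0.61. PSMD5 (S5b), named here although its change is smaller than the 16 chosen by size, read 1098, 1091 and 1019 against 1319, 1448 and 1397 (-0.38 ± 0.09 SE, adjusted p = 0.0238, limma). PSMD9 (p27) read 2793, 2485 and 2355 against 2155, 2105 and 2120 and did not pass (0.25 ± 0.10 SE, adjusted p = 0.108, limma). A dimmer probe set for PSMD9 fell by 0.74 on the log2 scale (adjusted p = 0.0232), so its probe sets disagree.

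Some calls of smaller size needed all 6 arrays. Of the 21 genes called, 15 passed with any 1 of the 6 arrays left out, 14 higher ones and PSMD10. PSMA3 failed without any 1 of them (adjusted p = 0.0523 to 0.0865). PSMD5 failed without any array but mock replicate 1 (0.0490 to 0.0877), and PSMA4 without any but MALT1 replicate 3 (0.0369 to 0.0998). PSMB1 and PSMD1 failed without MALT1 replicate 1 or 2 or mock replicate 1 or 2 (0.0262 to 0.0701 and 0.0277 to 0.0609), and PSMB3 without MALT1 replicate 1 or mock replicate 1 or 2 (0.0293 to 0.0655). These 5 higher genes are also the ones lost when arrays were centred on their median. The signs of the differences held in each case. Across a gene's probe sets, 13 genes had more than 1; of the 15 further probe sets that were not dim throughout, 10 had the sign of the brightest, 6 of them past the threshold, and 2 passed in the opposite direction, in PSMB2 and PSMD9.

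The regulators that bind the finished core, counted together with further assembly factors, went both ways. Of 9 measured activator, inhibitor and assembly genes, 4 were higher, 4 lower and 1 did not pass, against 21.1% and 19.2% of all genes. After median centring 2 of the 9 were higher. PSME1, which forms the interferon-inducible 11S cap, rose from 1134 ± 38.5 to 2138 ± 152 (mean ± SD, n = 3 each; 0.91 ± 0.09 SE, adjusted p = 0.0015, limma), and PSME4, the PA200 cap, by 0.60. PSME3, the nuclear PA28-gamma cap, fell from 1383 ± 80.2 to 815 ± 21.4 (-0.76 ± 0.09 SE, adjusted p = 0.0022, limma), and the inhibitor PSMF1 (PI31) fell by 0.66 on the log2 scale. PSMG1 and PSMG2, a pair of chaperones that assemble the alpha ring, both fell, by 0.47 and 0.38 on the log2 scale (adjusted p = 0.0145 and 0.0233, limma). Among the alpha genes 3 passed as higher and none as lower, while PSMA2 was lower without passing (-0.35). A relation of PSMG1 and PSMG2 to the alpha genes was not tested. The maturation factor POMP read 7020 ± 383 against 7373 ± 496 and did not pass (adjusted p = 0.639, limma).

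Of 8 measured genes for substrate receptors, deubiquitinases and shuttle factors, 5 were higher, 1 was lower and 2 did not pass, against 21.1% and 19.2% of all genes. With each array centred on its median, 3 of the 8 were higher. UCHL5, a deubiquitinase of the 19S base, rose from 1119 ± 77.0 to 2128 ± 307 (0.92 ± 0.14 SE, adjusted p = 0.006, limma). Its docking site ADRM1 (Rpn13), a ubiquitin receptor, fell from 2144 ± 107 to 1665 ± 22.4 (-0.36 ± 0.08 SE, adjusted p = 0.0225, limma). The thioredoxin-like TXNL1 rose by 0.59 and the ubiquitin ligase UBE3C by 0.50 (adjusted p = 0.0036 and 0.0064, limma). Of 3 measured ubiquitin and activating enzyme genes only UBA6 passed, falling by 0.73 on the log2 scale, and UBB read 15930 ± 1442 against 14363 ± 1264 (adjusted p = 0.396, limma).

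The transcript of NFE2L1, the factor known to induce proteasome subunits together when the proteasome fails, did not pass. It read 1239, 1277 and 1281 against 1117, 1116 and 1188 (0.15 ± 0.08 SE, adjusted p = 0.216, limma), and the activity of the protein is set after translation. Of the 10 genes measured in the list of NFE2L1 processing factors, partners and NF-Y subunits, 2 were higher, 1 was lower and 7 did not pass, a share close to the 21.1% higher of all genes. NGLY1, the glycosidase that activates NFE2L1, rose by 0.36 and the NF-Y subunit NFYC by 0.57 (adjusted p = 0.0207 and 0.0265, limma), and neither passed after centring each array on its median. The small MAF partner MAFF fell from 861 ± 31.5 to 297 ± 27.2 (-1.54 ± 0.10 SE, adjusted p = 0.00039, limma).

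Other large constitutive complexes were set beside the proteasome, as a description. Of 51 cytosolic ribosomal protein genes 1 was higher (RPL29, 0.31), 0 were lower and 50 did not pass, with a median of 0.13 and a range of -0.14 to 0.31. After median centring or quantile normalization 0 of the 51 were higher. Of 7 genes of the CCT chaperonin, which folds actin and tubulin, CCT5 was higher (0.32), CCT6A lower (-0.91) and 5 did not pass. No CCT gene was higher after median centring or quantile normalization, and 2 were lower after the latter. Of 65 oxidative phosphorylation genes 40 were higher, 6 lower and 19 did not pass, with a median of 0.50, and ATP5MC2, COX6C, ATP5ME and NDUFA10 rose by 1.55, 1.17, 1.12 and 1.13. The proteasome genes, with 63.3% higher, thus lay close to the 61.5% of the respiratory genes and far from the 1.96% of ribosomal protein genes. These differences were not tested. The lists also differ in brightness. Mean signal reached 20090 among the ribosomal protein genes, the highest of all genes, and 10011 among the proteasome genes. The part of brightness in these shares was not tested.

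**Figure D3:**
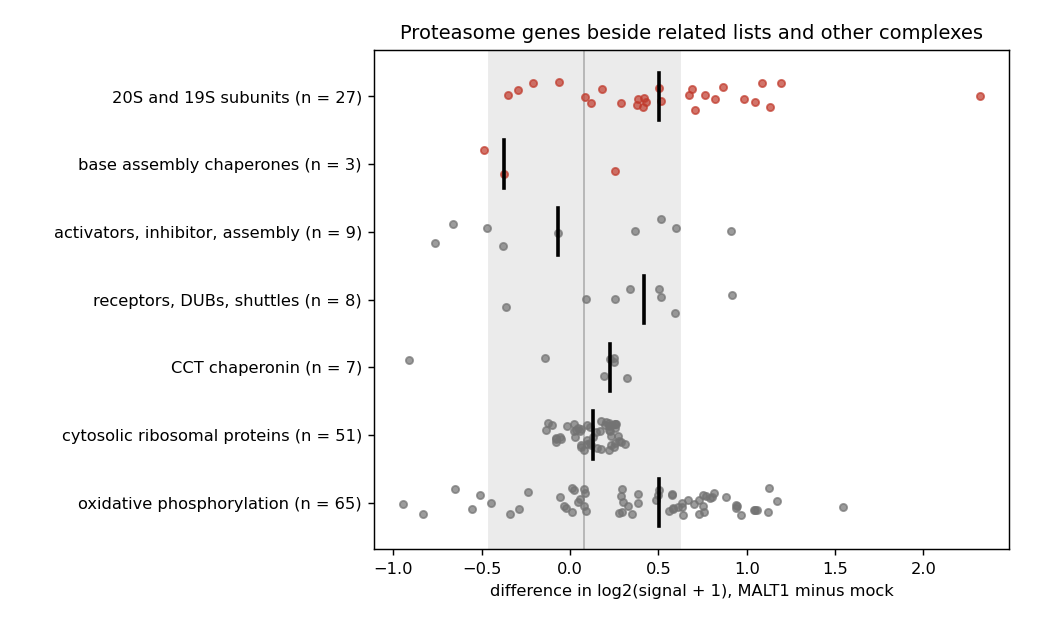
Log2 difference (MALT1 minus mock) of each gene in the proteasome, in related lists and in other complexes; each point is a gene, black bars are medians, and the grey band and line are the quartiles and median of all 11963 genes (-0.46, 0.62 and 0.08). Most subunit genes lie right of the grey line, ribosomal protein genes lie in a narrow strip, and the chaperones and regulators are split.

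Genes next to a proteasome gene on the chromosome were compared with it, taking the 10 nearest measured genes on either side in the order of the RefSeq gene table; PSMB1 had 12 in all and each other gene 20. Across the 30 genes the neighbours' median log2 differences ran from -1.33 to 1.17, with Pearson r = 0.54 and Spearman rho = 0.52 to the gene's own difference (a description over genes, some of which share neighbours and all of which share the 6 arrays). PSMD4 and PSMB4 lie on chromosome 1 with 3 measured genes between them, so they share most neighbours. Of the 20 neighbours of PSMD4, 15 were higher and 1 lower, with a median of 1.17 beside its own 1.19; of those of PSMB4, 13 were higher and 3 lower, with a median of 1.11 beside 1.05. PSMD10 on chromosome X had 14 of 20 neighbours lower and 1 higher, with a median of -1.33, below its own -0.48. PSMD6 on chromosome 3 had 6 higher and 4 lower, with a median of 0.48 beside 2.32. PSMD11 on chromosome 17 rose by 0.50 where 0 of 20 neighbours were higher and 5 lower. Over all 30 genes, 23 lay above their neighbours' median, and the median gap was 0.38.

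**Figure D4:**
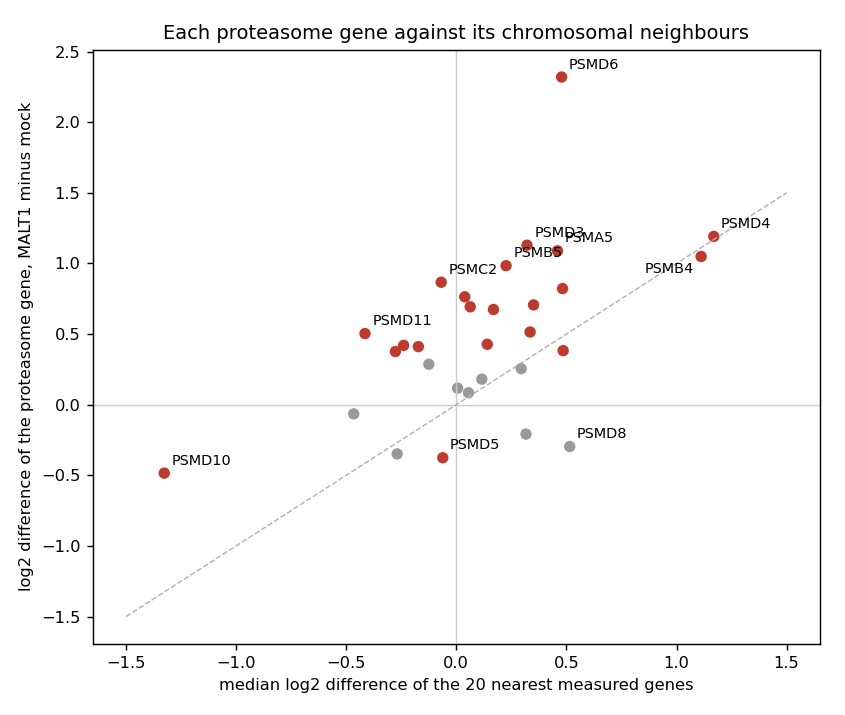
Log2 difference of each of the 30 proteasome genes (vertical axis) against the median log2 difference of its 20 nearest measured genes, or 12 for PSMB1 (horizontal axis); red points passed an adjusted p under 0.05, grey points did not, and the dashed line marks equal values. PSMD4 and PSMB4 lie on the line, PSMD6 lies far above it, and PSMD10 has the lowest neighbours at -1.33.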

How the data were processed

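Total RNA of 6 HSC2 samples was measured on Affymetrix 3′ arrays, 1 array per sample, after Trizol extraction and biotin labelling per the labels' protocols. The deposited values are linear intensity values per probe set, summarised by the authors with software not given in the sources used here; each array's mean, trimmed by 2% at each end, was about 500.15 to 500.17. Of 22277 probe sets, 62 controls were left out. Genes were named only from the 19064 probe sets with 1 symbol in the platform annotation, of which 19052 matched the RefSeq gene table of GRCh38.p14 by gene ID. Tests used limma 3.58.1 in R 4.3.3 (lmFit, eBayes) on log2(signal + 1), group as the only term, 3 against 3 arrays, two-sided, with no filter on signal.

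The proteasome genes, the lists and the tests were chosen with earlier results of these data known. Genes named with all values were PSMB5, PSMB6 and PSMB7 and the 16 called genes with the largest difference, and of each list up to 4 genes with the smallest adjusted p. Further ones, and the dim level of 17.6, were chosen after their values were seen. One further ATPase gene is not reported here. Probe sets ending in s_at or x_at can bind related transcripts, including pseudogenes. Alternatives covered scaling, the added constant, dim probe sets, the variance model, the probe set rule, a replicate block and leaving out each array.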

Additional observations from a re-analysis of the deposited data

How the results depend on the processing

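The count of 19 higher proteasome genes stayed within 1.5 times under all alternatives run, at 14 to 22. Shares of all genes passing moved too, from 15.7% to 35.2% higher and from 14.3% to 35.1% lower. With 16 added before the log they were 22.7% higher and 20.9% lower. Without the dimmer 50% of probe sets they were 35.2% and 35.1%. With an intensity trend and robust variances they were 24.0% and 22.3%. The count of 2 lower genes was 4 with 16 added before the log, and 5 both without the dimmer 50% of probe sets and with an intensity trend and robust variances, where PSMA2 and PSMD8 (and PSMD2 in the last 2 settings) joined. It was 0 of 27 without the 3 assembly chaperones, an alternative added after the data were seen, and 1 to 2 with 1 array left out. The median log2 difference of 0.42 was 0.30 after median centring and 0.50 without the chaperones, and 0.40 to 0.46 with 1 array left out. Averaging a gene's probe sets ended the calls of PSMB1, PSMB2, PSMD5 and PSMD11 and added PSMA2 and PSMD8 as lower, so 3 genes were lower. With the replicate number as a replicate block, 14 genes were higher and 0 lower, and over all genes 1882 were higher and 1709 lower, against 2530 and 2298 without it. Same-numbered arrays' deviations correlated at 0.044, 0.007 and 0.045, and 4 of 6 arrays correlated best with their own number. These values do not settle whether the numbers pair the samples. Among PSMB7 and the 16 called genes with the largest difference, no difference changed sign under the alternatives run; PSMA7, which did not pass, went from 0.08 to -0.04 with median centring. With the replicate block the regulator list had 2 genes lower in place of 4, the list of substrate receptors 0 in place of 1, and NFE2L1, CCT and ribosomal lists had 0 genes higher. The cause of these changes was not tested.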
